A study of Homo sapiens with 24 samples.

Results

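Promoter regions tested for H3K27Ac, the acetylation of histone H3 on lysine 27, were compared between ANCO1 knockdown and control cells of 2 human mammary epithelial lines. A region counted as a promoter region when the authors' annotation of it held at least 1 gene entry of promoter type. This gave 23501 of 50284 regions in 10A (46.7%) and 23037 of 44790 in DCIS (51.4%), or 46538 of 95074 in all. The entry reached some distance from a gene's start. Of regions with a midpoint 3 to 5 kb upstream of a protein-coding transcription start site (TSS), 98.4% in 10A and 98.7% in DCIS carried it, against 33.9% and 33.2% of those 5 to 10 kb upstream. Of regions with a midpoint 10 kb or more from the nearest protein-coding TSS, 19.9% of 30585 in 10A carried it. In DCIS 20.8% of 25182 did. The members therefore include the start itself, chromatin beside it, and regions far from any protein-coding start. Of the 10A promoter regions 71.8% overlapped one of DCIS, and of the DCIS regions 79.3% one of 10A.

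MCF10A (10A) is a non-tumorigenic immortalized mammary epithelial line, and MCFDCIS (DCIS) is a line used as a model of ductal carcinoma in situ. The study describes DCIS as descended from 10A, by way of xenograft tumors of 10A cells that had been transfected with an oncogene. The lines are therefore related. In each line, cells infected with lentivirus carrying a short hairpin against ANCO1, the product of the ANKRD11 gene (shANCO1), were set against cells with a control hairpin (shCTRL). All 4 lines went through infection and puromycin selection, and all were grown with epidermal growth factor, hydrocortisone, insulin and cholera toxin. Each of the 4 was sequenced as 3 H3K27Ac immunoprecipitates and 3 inputs (sonicated chromatin with no pull-down), which made 24 libraries in 8 groups. What limits the groups as a model is that a hairpin lowers and does not remove its target. The knockdown labels give the target, and neither which hairpin against it was used nor a clone. The study made several such hairpins, and its figures on the mark name a single knockdown line. Each cell line has a single knockdown group here. Whether a change came from lower ANCO1 or from another effect of the hairpin was therefore not tested. Chromatin came from whole cultures, so a change in the share of cells that carry the mark cannot be told apart from a change in its level per cell.

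The deposited tables give each region 1 log2 fold change (shANCO1 over shCTRL, in 1 representative window of the region), 1 false discovery rate (FDR) and the number of windows tested in it. Replicate values, read counts and library depth were not in these tables, so the spread between the 3 replicates enters here only through the FDR of the authors' csaw test. Nothing states that replicates were separate cultures, and the p-values then measure only the spread between these samples. A region with an FDR under 0.05 is called up or down by the deposited direction. How the representative window is picked within a region is not stated here. The log2 fold change of a region can therefore lie further from 0, or nearer to it, than an average over its windows. The value may also depend on whether the region was called. In both lines the values were also shifted above 0 over all regions, with medians of 0.76 in 10A and 0.52 in DCIS, and promoter values are read against these.

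At active genes, nucleosomes on either side of the start carry H3K27Ac, which is written by the acetyltransferases EP300 and CREBBP and removed by histone deacetylases. ANCO1 is a nuclear protein with ankyrin repeats that binds nuclear receptor coactivators and recruits deacetylases. Human promoters fall into broad sequence types. Promoters rich in CpG dinucleotides lie in CpG islands and serve most housekeeping genes and many regulated ones, whereas CpG-poor promoters serve mostly tissue-restricted genes such as those of epidermal differentiation, secreted cytokines and cell adhesion.

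The contrast that the results below turn on is seen in the bases before the start of a few genes. The first 4 sequences belong to start regions that were up in both lines, the next 3 to start regions that were up in 10A but not called in DCIS, and the last to a CpG-rich start that was up in both. Each is the 150 bases upstream of a RefSeq start on GRCh38, 5′ to 3′ along the gene, with CpG dinucleotides in capitals. LAMB3, COL17A1 and MIR205HG have CpG-poor starts and IL1A an intermediate one by the classes defined further on, and the last 4 are CpG-rich. These 8 genes were chosen after their values were seen.
LAMB3, chr1:209652426-209652575, minus strand: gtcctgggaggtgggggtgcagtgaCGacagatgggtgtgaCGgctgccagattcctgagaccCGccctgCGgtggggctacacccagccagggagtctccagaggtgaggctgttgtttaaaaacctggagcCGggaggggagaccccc
COL17A1, chr10:104085881-104086030, minus strand: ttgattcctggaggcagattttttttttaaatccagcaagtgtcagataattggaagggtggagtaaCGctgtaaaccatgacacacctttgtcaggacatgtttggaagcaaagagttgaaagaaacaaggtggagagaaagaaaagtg
MIR205HG, chr1:209428670-209428819, plus strand: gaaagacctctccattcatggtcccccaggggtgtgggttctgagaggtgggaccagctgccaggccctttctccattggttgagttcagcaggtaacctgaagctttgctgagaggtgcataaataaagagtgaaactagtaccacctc
IL1A, chr2:112784401-112784550, minus strand: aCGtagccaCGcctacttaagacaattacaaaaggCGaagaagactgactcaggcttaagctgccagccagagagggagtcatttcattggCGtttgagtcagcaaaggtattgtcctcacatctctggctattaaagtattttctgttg
MT2A, chr16:56608434-56608583, plus strand: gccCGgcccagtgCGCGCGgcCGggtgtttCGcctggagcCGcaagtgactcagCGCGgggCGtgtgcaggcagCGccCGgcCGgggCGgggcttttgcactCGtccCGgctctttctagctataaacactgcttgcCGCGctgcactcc
PSMD14, chr2:161308275-161308424, plus strand: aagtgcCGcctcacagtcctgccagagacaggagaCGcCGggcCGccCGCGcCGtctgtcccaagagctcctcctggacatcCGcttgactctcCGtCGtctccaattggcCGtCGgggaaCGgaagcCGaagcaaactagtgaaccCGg
JUNB, chr19:12791336-12791485, plus strand: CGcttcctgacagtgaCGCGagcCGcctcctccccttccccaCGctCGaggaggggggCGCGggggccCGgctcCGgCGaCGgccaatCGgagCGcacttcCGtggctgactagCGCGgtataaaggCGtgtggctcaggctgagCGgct
F3, chr1:94541760-94541909, minus strand: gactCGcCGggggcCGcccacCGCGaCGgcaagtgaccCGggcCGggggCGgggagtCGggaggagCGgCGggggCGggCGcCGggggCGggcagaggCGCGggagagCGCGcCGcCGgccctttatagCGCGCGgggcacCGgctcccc

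LAMB3 encodes the beta chain of laminin-332, COL17A1 a hemidesmosome collagen, MIR205HG the host transcript of the epithelial microRNA miR-205, and IL1A the cytokine interleukin-1 alpha. Their stretches held 5, 1, 0 and 4 CpG. MT2A is a metal-binding metallothionein, PSMD14 the deubiquitinase of the proteasome lid and JUNB an AP-1 subunit, and their stretches held 18, 15 and 19 CpG. F3, the gene of tissue factor, had 26. The AP-1 site TGACTCA was found on either strand in the stretches of IL1A, at 105 and 55 bases before the start, and MT2A, at 104 bases, and in none of the other 6. A match of this kind describes the letters and is no measure of binding.

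About as many promoter regions were called up in 10A as were not called. Of the 23501, 11946 (50.8%) were up, 30 (0.128%) were down, 2 had windows called both ways and 11523 were not called. Over all 10A regions tested, 43.6% were up and 0.225% down (43.8% called in any direction), and of regions with no promoter entry 37.2% were up. The median log2 fold change of promoter regions was 0.79 (quartiles 0.55 and 1.03), beside 0.73 (0.37 and 1.02) without the entry. Promoter regions made up 54.5% of all up regions and 26.5% of the 113 down regions. With the median of all regions set to 0 and a gain of 1 log2 unit or more required, 224 were left, 39.0% of such regions, which is below their 46.7% of the table, so the higher promoter share in 10A did not hold for the larger changes. Of the 10A promoter regions 94.7% had a log2 fold change above 0, and since the normalization is not stated, an offset between all shANCO1 and shCTRL libraries cannot be told apart from gains at single regions.

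In DCIS the order was the other way round. Of 23037 promoter regions, 3751 (16.3%) were up, 754 (3.27%) were down, 2 were mixed and 18530 were not called. The shares over all DCIS regions were 23.6% up and 4.86% down (28.5% called in any direction), and regions with no promoter entry were up at 31.3% and down at 6.53%. The median log2 fold change was 0.33 (quartiles -0.29 and 0.96) at promoter regions and 0.74 (-0.22 and 1.45) elsewhere. Promoter regions held 35.5% of the up and 34.7% of the down regions of DCIS, both less than their 51.4% of all regions.

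The lines differed in how large a change had to be before it was called. The smallest log2 fold change among up promoter regions was 0.39 in 10A and 0.79 in DCIS. Of promoter regions with a log2 fold change of at least 1, 95.9% were called up in 10A and 67.2% in DCIS. Counted by size alone, 27.5% of promoter regions reached 1 in 10A, beside 26.1% of regions without a promoter entry, while in DCIS 23.6% did, beside 40.4%.

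Position within a gene set the DCIS values apart. In DCIS, 5.67% of the 5357 regions with a midpoint 0 to 0.5 kb downstream of a protein-coding TSS were up, and 7.50% of the 3281 in the 0.5 kb upstream. The share was 32.7% at 3 to 5 kb upstream and 23.1% at 3 to 5 kb downstream. Median log2 fold changes followed, from 0.75 at 3 to 5 kb upstream through 0.13 at 0 to 0.5 kb downstream to 0.65 at 3 to 5 kb downstream, with the lowest, 0.04, at 0.5 to 1 kb downstream. In 10A the share up was instead highest near the TSS, 58.9% at 0 to 0.5 kb downstream and 63.8% at 0.5 to 1 kb, against 40.8% at 3 to 5 kb upstream. The 10A medians stayed between 0.71 and 0.85 throughout. These regions include the few near a TSS that carried no promoter entry.

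**Figure D1:**
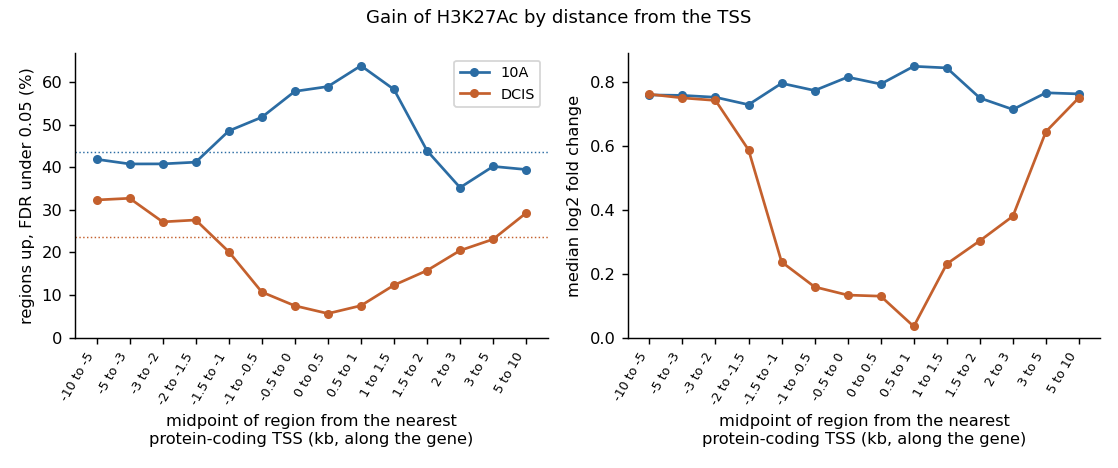
Share of regions up at an FDR under 0.05 (left, in %) and median log2 fold change of shANCO1 over shCTRL (right), by distance in kb of the region midpoint from the nearest protein-coding TSS, for 10A and DCIS. Dotted lines give the share up over all regions, 43.6% and 23.6%, and the DCIS points dip to 5.67% at the TSS where the 10A points rise.

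The annotation was then divided by the promoter sequence. Of the 46538 promoter regions, 8310 in 10A and 7043 in DCIS held a RefSeq start of a gene named in their promoter entry, with a sequence on GRCh38. A start was called CpG-rich when the stretch from 250 bases before to 50 after it had an observed to expected CpG ratio of at least 0.75 and a GC content of at least 55%, CpG-poor when the ratio was under 0.48, and intermediate otherwise. A region with several starts took the most CpG-rich of them.

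In DCIS, regions over CpG-rich starts, which serve most housekeeping genes, were seldom called. Of 4480 such regions, 212 (4.73%) were up and 56 (1.25%) down, with a median log2 fold change of 0.16 (quartiles -0.32 and 0.70). Of 1707 regions over intermediate starts, 7.09% were up, with a median of 0.30. Of 856 regions over CpG-poor starts, 241 (28.2%) were up and 45 (5.26%) down, with a median of 0.72 (-0.09 and 1.26), close to that of regions with no promoter entry. The background of 23.6% up lay between the classes. Promoter regions that held no RefSeq start, 15994 in number, had 19.9% up and a median of 0.38.

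In 10A the classes lay close together and in another order. Up regions made up 67.9% of 5680 CpG-rich, 62.9% of 1762 intermediate and 59.0% of 868 CpG-poor starts, and the medians were 0.83, 0.81 and 0.86. None of the CpG-rich or intermediate starts was down and 3 CpG-poor starts were. The 15191 regions that held no start had 42.6% up and a median of 0.76. The order of the 2 outer classes in 10A turned where regions enriched over input in both groups were taken, with 73.0% of CpG-rich and 73.3% of CpG-poor starts up.

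**Figure D2:**
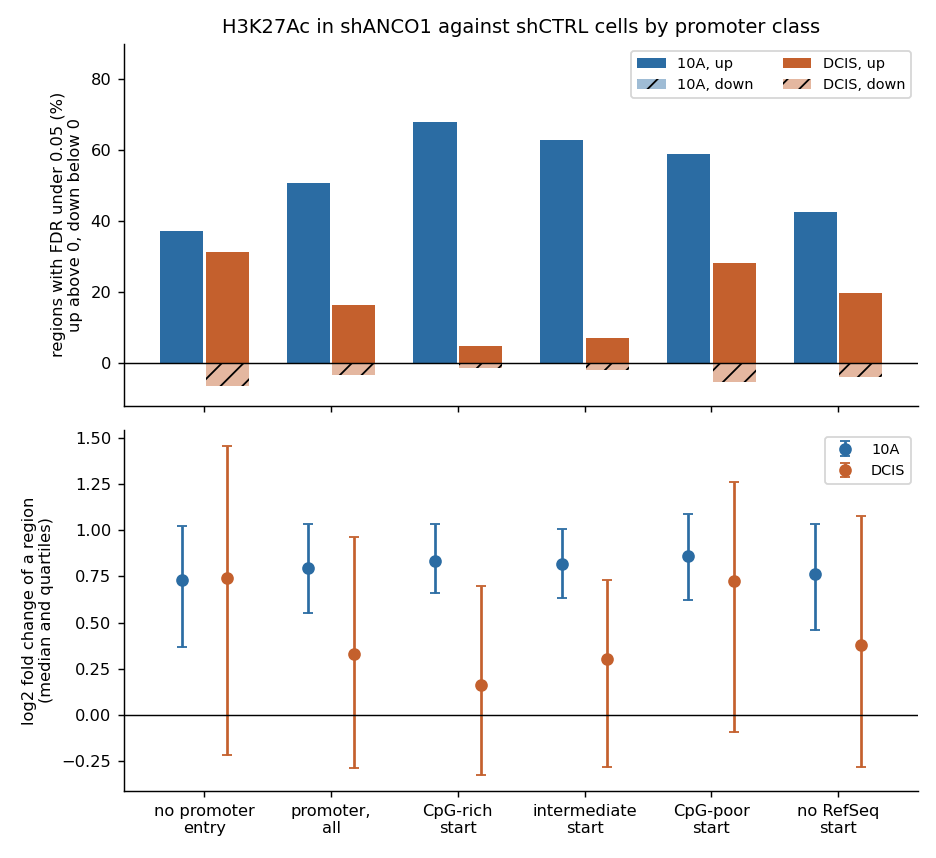
Upper panel, share of regions called up (above 0) and down (below 0) at an FDR under 0.05, in %. Lower panel, median and quartiles of the log2 fold change, shANCO1 over shCTRL. Each panel has regions without a promoter entry, all promoter regions, and promoter regions by the sequence class of the start they hold, in 10A and DCIS. In DCIS the CpG-rich starts have the lowest share up, 4.73%, and in 10A the highest, 67.9%.

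The DCIS contrast was present at a set number of windows. Among regions of 11 to 20 windows, 3.16% of 2151 CpG-rich and 30% of 250 CpG-poor starts were up in DCIS, and 61.1% of 2406 and 53.6% of 263 in 10A. It was also present in the log2 fold change of the representative window, counted whatever the FDR. That window may be picked through the same p-values, so this is no separate check of the calls. A log2 fold change of at least 1 was reached by 11.9% of CpG-rich and 36.3% of CpG-poor starts in DCIS, and by 28.2% and 33.5% in 10A. In DCIS, changes of that size were called up in 37.4% of cases at CpG-rich and 73.0% at CpG-poor starts, so the classes differed in the FDR given to a change of this size as well. Losses of at least 1 occurred at 7.52% of CpG-rich and 10.2% of CpG-poor starts in DCIS.

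Start regions could be matched gene by gene, since the lines share no library. There were 7349 genes whose start lay in a promoter region of both tables at a start of the same class. At 4930 CpG-rich genes, 67.6% were up in 10A and 4.60% in DCIS. At 583 CpG-poor genes the shares were 61.6% and 28.0%. Of the CpG-rich genes up in 10A, 5.49% were also up in DCIS (183 genes), and of those up in DCIS 80.6% were up in 10A. For CpG-poor genes these shares were 30.6% (110 genes) and 67.5%. Where the start was enriched over input in all 4 groups, 5.54% of 2580 CpG-rich and 23.1% of 195 CpG-poor genes were up in DCIS, and 71.0% and 71.8% in 10A.

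Of the CpG-poor starts up in both lines, LAMB3 had the lowest larger FDR. LAMB3 had a log2 fold change of 1.34 in 10A (FDR 5.31e-08) and 2.45 in DCIS (FDR 9.85e-08). MIR205HG had 0.82 and 2.78, AHNAK2, a large scaffold protein, 1.46 and 2.26, and S100A16, a calcium-binding protein, 1.30 and 1.20. Further down the same order came CSF2, the gene of the cytokine GM-CSF, with 0.82 and 2.37, and MMP14, a membrane-bound matrix metalloproteinase, with 1.13 and 2.52. The DCIS value was the larger in each of these apart from S100A16. These genes, and those of the next paragraph, were picked by their own calls and after their values were seen.

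The 3117 CpG-rich starts up in 10A but not called in DCIS had a median DCIS log2 fold change of 0.17 (quartiles -0.33 and 0.66), with 26.1% of them within 0.25 of 0. The start of MT2A had 1.21 in 10A (FDR 3.27e-07) and 0.01 in DCIS (FDR 0.998). PSMD14 had 1.29 and 0.03, PDLIM5, a cytoskeletal scaffold, 1.31 and 0.00014, and CHST3, a chondroitin sulfotransferase, 1.17 and -0.03. KATNAL1, a katanin-like microtubule protein, had 1.38 and -0.97 (FDR 0.262). Others of the 10 with the lowest 10A FDRs had higher DCIS values, RNF25 0.71, PITPNC1 0.92 and TMSB10 1.26. MT2A, PSMD14, PDLIM5 and CHST3 were enriched over input in all 4 groups, and KATNAL1 in 10A shANCO1 cells alone. A smaller set of CpG-rich starts was up in both, with ABLIM3, an actin-binding protein, at 1.20 and 2.64, ECT2, an exchange factor that acts in cytokinesis, at 1.00 and 2.78, TNIP1, an inhibitor of NF-kB signalling, at 1.70 and 2.38, and DCBLD2, a membrane receptor, at 0.92 and 3.42.

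**Figure D3:**
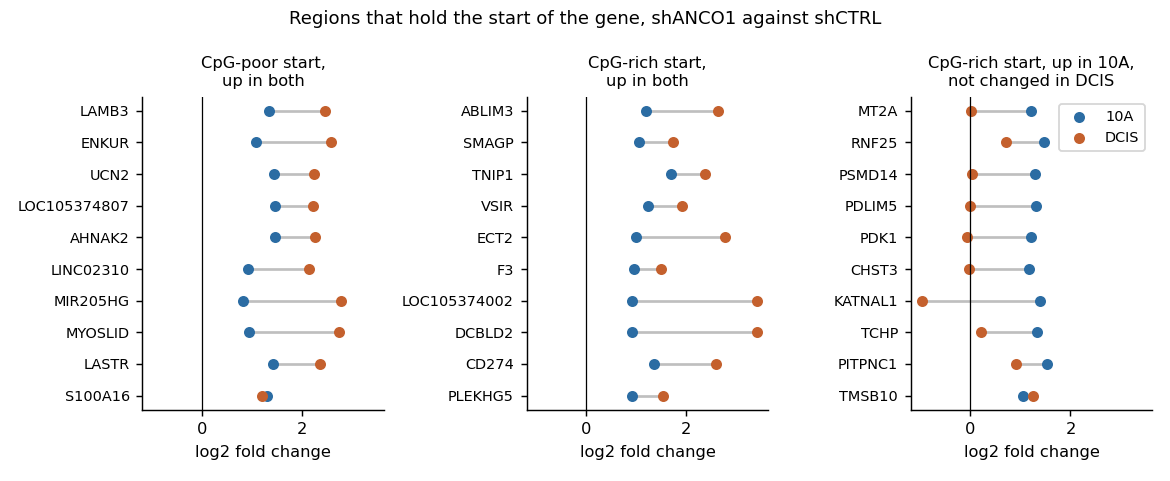
Log2 fold change of the region that holds the start of the gene, shANCO1 over shCTRL, in 10A and DCIS (1 point per line, joined by a grey bar), for the 10 genes with the lowest FDRs in each of 3 groups set by sequence class and call. The third group differs between lines by the way it was chosen, and its DCIS points lie on both sides of 0, from -0.97 at KATNAL1 to 1.26 at TMSB10.

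Within the same gene, the start was compared with tested regions over the gene that carry no promoter entry. In DCIS 1637 genes had both, and the start was lower than the median of the other regions at 68.0% of them, by a median difference of -0.47 log2 units (quartiles -1.25 and 0.21). Start values had a median of 0.34 and the others 0.82. At CpG-rich genes the difference was -0.55, at intermediate genes -0.54 and at CpG-poor genes -0.05. A region within the gene was up with the start not called at 698 of these genes, both were up at 123, and the start alone at 45. In 10A the difference over 2470 genes was 0.16 (-0.13 and 0.49), and the start alone was up at 684 and a region within the gene alone at 387.

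Width went with the calls in 10A. The share of promoter regions up was 18.5% at 1 or 2 windows and 85.2% at 31 to 50 windows, and regions without a promoter entry ran from 17.5% to 77.0% over the same bins. In every bin of 10A the promoter share was the higher. In DCIS the promoter share moved only between 14.2% and 24.7% and was the lower in every bin, where regions without the entry ran from 26.5% to 37.1%. The median promoter region had 12 windows and 1400 bp in 10A and 9 windows and 1100 bp in DCIS, beside 6 windows and 800 bp, and 5 windows and 600 bp, for the remainder.

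**Figure D4:**
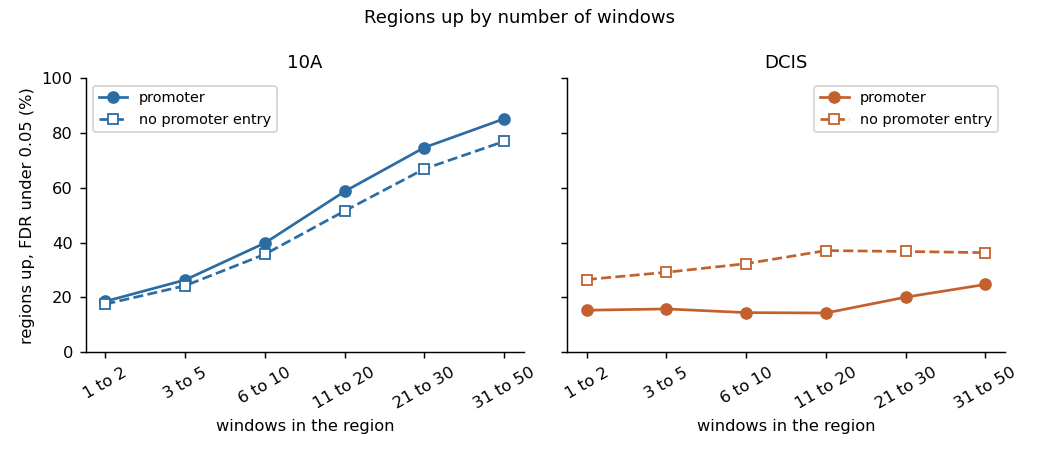
Share of regions up at an FDR under 0.05, in %, by the number of windows in the region, for promoter regions (filled circles) and regions without a promoter entry (open squares) in 10A (left) and DCIS (right). The 10A curves rise from 18.5% and 17.5%, and the DCIS promoter curve lies under the other in each bin.

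Regions with promoter entries for genes on both strands were examined next. The order of the starts was not checked, so these need not be pairs of genes read outwards from a shared stretch. In DCIS 10.2% of 5771 regions with promoter entries on both strands were up, against 18.3% of 17266 with entries on 1 strand. Within CpG-rich starts the shares were 4.52% and 4.90%. In 10A they were 57.4% and 48.9%, and 67.7% and 68.0% within CpG-rich starts, so in either line regions of both kinds had nearly the same share once the class was set. By chromosome, the promoter share up in DCIS was highest on chromosome 3 (24.4% of 1341) and lowest on X (8.53% of 516), and in 10A it ran from 43.6% on chromosome 19 to 54.7% on chromosome 11. Without chromosome 3 the DCIS shares of CpG-rich and CpG-poor starts were 4.21% and 27.2%, an alternative chosen after seeing the data.

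The comparisons with input show which promoter regions carried the mark in each group. They use the same shANCO1 and shCTRL libraries as the direct comparison, so the 2 are not independent. In 10A 13214 promoter regions overlapped a region enriched in shANCO1 cells and 6921 one enriched in shCTRL cells, which is 56.2% and 29.4%, against 45.2% and 23.5% over all regions of the table. Of these, 6813 were enriched in both, 6401 in shANCO1 cells only and 108 in shCTRL cells only. In DCIS 9224 (40.0%) were enriched in shANCO1 and 8504 (36.9%) in shCTRL cells, against 30.3% and 27% over all regions, with 7268 in both, 1956 in shANCO1 only and 1236 in shCTRL only.

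Where both groups were enriched, 70.4% of 10A and 10.8% of DCIS promoter regions were up. Where shANCO1 alone was enriched, the shares were 69.5% and 49.9%. In DCIS this set differed by class, with 69.3% of 127 CpG-poor and 14% of 350 CpG-rich starts up. Where shCTRL alone was enriched, 18.4% of the 1236 DCIS regions were down, with a median log2 fold change of -0.63, and 32.8% of the 61 CpG-poor starts among them. Promoter regions enriched in neither group, 10179 in 10A and 12577 in DCIS, were narrow, with a median of 4 windows in each line, and 26.5% and 15.7% of them were up.

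The 8 promoter regions with the lowest FDRs in 10A were LINC02730 (log2 fold change 1.73, FDR 9.80e-11, 30 of 30 windows up, chr11:134023601-134027000), LOC105370062 (1.46), LINC01470 (1.57), RBPMS with its antisense RBPMS-AS1 (1.91), HSD11B1 (1.96), GBF1 (1.55), LOC105376617 (1.35) and ADAMTS6 (1.5). Of these 8 regions only that of LINC02730 held a RefSeq start of a gene in its promoter entry. The RBPMS region held a protein-coding TSS. The nearest one lay 4521 bp from the HSD11B1 region, 49710 bp from that of GBF1 and 270920 bp from that of ADAMTS6. HSD11B1 encodes the enzyme that regenerates active glucocorticoid. Its region was enriched over input in both groups, by 3.47 log2 units in shCTRL and 5.72 in shANCO1 cells. Among regions of at least 5 windows, the largest gains were at CXCL3, a neutrophil chemokine (2.73, FDR 2.33e-07, 31 of 31 windows, chr4:74030501-74033800), ADAMTS9 with its antisense ADAMTS9-AS2, a secreted protease (2.65), and SRPX, an extracellular sushi-repeat protein (2.59). The CXCL3 region was enriched over input in shANCO1 cells only and held no RefSeq start.

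Of 30 down promoter regions in 10A, none reached a log2 fold change of -2 and 21 were at -1 or below. FBLN1, a matrix fibulin, had the lowest FDR (-1.18, FDR 0.000827, chr22:45537001-45539000), with 3 of 19 windows down and the region enriched over input in both groups. AKAP6, an anchor for protein kinase A, had -1.07 and RAB6A, a GTPase of Golgi transport, -1.20, both at regions enriched in shCTRL cells only. The others by FDR were GRINA (-0.96), LOC100507389 (-1.13), PPP1R37 (-1.30), LINC01485 (-1.13) and F2RL3 (-0.99), and by size, among regions of at least 5 windows, UGT1A6 (-1.23) and PRKCD (-1.18). Of the 30, 27 held no RefSeq start, beside 15191 of all 23501 promoter regions in 10A.

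In DCIS the gains with the lowest FDRs were larger. ATOX1, a copper chaperone, had a log2 fold change of 4.79 (FDR 2.90e-18, 20 of 21 windows up, chr5:151740201-151742400), and its region was enriched over input in shANCO1 cells only, by 7.0 log2 units. FXYD5, a regulator of the sodium pump and of cell adhesion, had 4.60 (FDR 6.99e-16) with 34 of 34 windows up and a neighbouring region at 5.88. LY6D, a surface protein of stratified epithelium, had 3.64 (FDR 3.90e-18). F11R, the junctional adhesion molecule A, had 3.06, the region of MIR205 and MIR205HG 2.78, that of UCA1 and LINC01764 4.75, S1PR4, a receptor for sphingosine-1-phosphate, 3.28, and LINC02966 2.86. Of these 8 regions, the MIR205HG region was enriched over input in both groups and the other 7 in shANCO1 cells only. Only the MIR205HG region held a RefSeq start of a gene in its promoter entry. The FXYD5 region with 34 windows held a protein-coding TSS. The nearest one lay 969 bp from the S1PR4 region, 1362 bp from that of LY6D, 9718 bp from that of ATOX1 and 23096 bp from that of F11R. Among regions of at least 5 windows, the largest gains by size were at narrow ones, LINC01444 (7.22, 6 windows) and PDCD1LG2 (7.03, 5 windows), the gene of the immune checkpoint ligand PD-L2, which were enriched over input in neither group.

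The DCIS losses with the lowest FDRs all lay at regions enriched in shCTRL cells only. The region shared by PDE10A, a cyclic nucleotide phosphodiesterase, with LINC00473 and LINC00602 fell by 2.69 log2 units (FDR 1.01e-10, 26 of 26 windows down, chr6:165985801-165988700). FMO6P, a flavin monooxygenase pseudogene, fell by 3.88 (FDR 1.21e-10, 31 of 31 windows), and its region stood 7.11 log2 units over input in shCTRL cells. Others were LOC105375749 (-2.53), TRERNA1 (-3.26), DPYS, an enzyme of pyrimidine breakdown (-2.41), CLDN10-AS1 (-2.89), LOC105372984 (-2.78) and LINC01985 (-2.43). Of these lowest-FDR losses, only the region with PDE10A held a RefSeq start of a gene in its promoter entry. The DPYS region lay 51855 bp from the nearest protein-coding TSS. Among regions of at least 5 windows, the largest losses by size were PLXDC2 (-4.61, 3 of 13 windows down), FMO6P and ENTPD2, an ectonucleotidase, whose region is shared with LOC105376327 (-3.87). Of the 754 down regions, 619 (82.1%) held no RefSeq start, 56 held a CpG-rich, 34 an intermediate and 45 a CpG-poor one. Among all 23037 DCIS promoter regions these classes numbered 15994, 4480, 1707 and 856, so most promoter regions held no start.

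Promoter regions named 16835 genes in 10A and 16627 in DCIS, and 15279 genes appeared in both. A gene had 1 promoter region in the median and up to 31 in 10A and 36 in DCIS, both at PVT1. With at least 1 region up, 10741 of the shared genes (70.3%) counted in 10A and 3116 (20.4%) in DCIS. Of these, 2484 were up in both, which is 23.1% of the 10A genes and 79.7% of the DCIS genes, where 70.3% and 20.4% are the shares over all shared genes. Among CpG-poor genes the DCIS share of the 10A genes was 39.4%, beside 35.9% of all CpG-poor genes up in DCIS. Over the 15279 genes the log2 fold changes of the widest promoter region had a Spearman correlation of 0.06 between lines, and a Pearson correlation of 0.06. Genes are not replicates and can share a region, so this is a description only.

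The genes up in both with the lowest larger FDR were LOC105376617, ADAMTS6, NT5E, LAMB3, FOSL1, MIR21 with VMP1, CDCA4, TGFBI and DRAP1. FOSL1, the AP-1 subunit FRA1, had 1.39 in 10A and 2.25 in DCIS. The region of MIR21, a microRNA within VMP1, had 1.17 and 2.16, and NT5E, the surface enzyme that makes adenosine, had 1.34 and 4.37, the latter in a region of 1 window. TGFBI, a secreted matrix protein, had 1.08 and 2.90. These values are of the lowest-FDR region in each line, which was not always the same stretch.

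By the lowest-FDR region, 350 genes gained the mark in 10A and lost it in DCIS, 4 went the other way and 3 were down in both. The 350 were 69.6% of the 503 genes down in DCIS, close to the 70.3% of all shared genes up in 10A. The 4 with the lowest larger FDR are described here. At CHPT1, a cholinephosphotransferase, the same stretch on chromosome 12 (101697001 to 101699100 in 10A, 101696501 to 101700800 in DCIS) had 1.24 in 10A (FDR 4.78e-05) and -2.63 in DCIS (FDR 1.30e-05), and was enriched over input in shANCO1 cells only in 10A and in shCTRL cells only in DCIS. DPYSL2, a regulator of the neuronal cytoskeleton, had 1.68 and -1.92, CLIP4 1.16 and -2.13, and LINC01985 0.97 and -2.43, each at different regions of the gene in the 2 lines.

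ANKRD11, the targeted gene, had 5 of 8 promoter regions up in 10A and 4 of 10 in DCIS. The lowest-FDR regions had 1.28 (FDR 8.86e-05, chr16:89315201-89318200) and 1.73 (FDR 0.000863, chr16:89315701-89317800) and were enriched over input in shANCO1 cells only. A hairpin acts on the transcript, so acetylation at the gene does not check the knockdown. With the genes that the study names as gaining RNA and H3K27Ac it makes a list of 10. All 10 had a promoter region up in 10A, and all 8 with a promoter region in the DCIS table had one up there. The study picked these genes on these libraries, so they are no independent evidence of direction.

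IL1A had log2 fold changes of 1.41 in 10A (FDR 3.91e-07, chr2:112781201-112785200) and 4.64 in DCIS (FDR 1.035e-13, chr2:112783401-112784400), with 37 of 39 and 9 of 9 windows up. The 10A region was enriched over input in both groups and the DCIS region in shANCO1 cells only. IVL, the cornified envelope protein involucrin, had 1.41 and 3.84 (FDR 2.87e-09), HBEGF, a ligand of the EGF receptor, 1.49 and 2.79, and S100A2, a calcium-binding protein of basal keratinocytes, 1.59 and 1.88. PLAU, the urokinase protease, had 1.34 and 1.44, and the start region of F3 0.96 and 1.5. IL1B (1.91) and SERPINB2 (0.82), the latter an inhibitor of urokinase, were up in 10A and had no promoter region in the DCIS table.

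Gene lists were counted by gene, and no list was tested. A gene of a list was counted up when at least 1 of its promoter regions was up. Over all genes with a promoter region, 68.5% in 10A and 19.9% in DCIS were up, and the median log2 fold change of the widest region was 0.83 and 0.30. With at least 1 region down these shares were 0.172% and 4.43%. A gene with more promoter regions has more chances to count. By the widest region alone, 62.5% of all genes in 10A and 13.4% in DCIS were up. Members of a list can share a region, as neighbouring histone genes do.

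The lists of histone, proteasome, ribosomal, respiratory and mitosis genes were below the DCIS share of all genes, and by the widest region they ran from 0% to 6.49% up. Of replication-dependent histone genes, which pack newly made DNA, 60 of 62 were up in 10A (median 0.94) and 0 of 61 in DCIS (median 0.06), where 5 fell. The 5 calls came from 2 regions. H3C1, H4C1, H4C2 and H1-1 share chr6:26019601-26023900 (-2.18, FDR 0.0169), and H1-2 lies at chr6:26053901-26058600 (-1.86, FDR 0.0485). The region that holds the start of H4C2 itself had 0.38 and that of H1-1 -1.42 in DCIS, neither called. The H3C1 region of 10A with the lowest FDR had 0.94 (FDR 0.00116). In both lines the majority of these promoters was enriched over input in each group, with 52 of 62 in shCTRL and 55 in shANCO1 cells of 10A and 61 of 61 in both groups of DCIS.

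Proteasome subunits were up at 23 of 30 in 10A (median 0.70) and 1 of 30 in DCIS (0.40), the exception being PSMD2 (1.57, FDR 0.0240). Cytosolic ribosomal protein genes were up at 46 of 76 (0.69) and 10 of 77 (0.45). RPL13 had 0.88 in 10A (FDR 9.89e-05), and in DCIS RPL24 had 1.46 (FDR 0.000244) and RPS6 1.39 (FDR 0.00124). Genes of oxidative phosphorylation were up at 37 of 66 (0.70) and 4 of 67 (-0.12), with UQCRH, of complex III, at 1.92 in 10A, NDUFV2, of complex I, at 1.98 in DCIS and COX5B, of complex IV, at -1.58 in DCIS (FDR 0.0359). Mitosis genes were up at 26 of 31 (0.81) and 4 of 31 (0.20), among them ECT2, and CDC20, an activator of the anaphase-promoting complex (1.46 in DCIS, FDR 0.02675).

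The hemidesmosome, cornified envelope and cytokine lists were above it, with 50%, 40% and 42.9% up in DCIS by the widest region. Regions per gene differed between lists, with a median of 5 in the hemidesmosome list and 1 in the proteasome, respiratory and mitosis lists. The hemidesmosome and laminin-332 list had 9 of 10 up in 10A (median 1.00) and 6 of 10 in DCIS (0.95), with COL17A1 at 4.02 (FDR 3.02e-08) and LAMB3 at 3.18 (FDR 1.80e-13) in DCIS. The cornified envelope list had 13 of 22 (0.84) and 12 of 25 (1.20) up. In DCIS it included SPRR1B (2.53, FDR 1.88e-06), SPRR3 (2.46) and SPRR2E (2.34), the small proline-rich proteins of the cornified envelope. Inflammatory cytokines were up at 16 of 19 (1.01) and 7 of 14 (1.19), with IL24 at 3.18 (FDR 1.35e-09), CSF2 at 3.18, CSF3, the gene of G-CSF, at 2.46 and IL7R, a receptor chain on that list, at 2.19 in DCIS. In 10A CXCL1, a neutrophil chemokine, had 1.34 (FDR 1.17e-07) and CCL20, a chemokine for CCR6, 1.62.

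Among regulators, YAP-TEAD targets were up at 24 of 25 in 10A (0.97) and 13 of 26 in DCIS (1.03), with NT5E and AMOTL1 (2.74), a binding partner of YAP, in DCIS and losses there at PTPN14 (-1.36, FDR 0.0398) and RBMS3 (-1.89). AP-1 factors were up at 11 of 12 (1.01) and 4 of 11 (0.33), those 4 being FOSL1, ATF3 (2.12), JUNB (1.46, at a region other than its start) and MAFF (0.86). NF-kB subunits and feedback genes were up at 13 of 17 (0.80) and 6 of 15 (0.53), with TNIP1 at 2.62 and TNFAIP2, a gene induced by TNF, at 2.66 in DCIS, and BCL3, an atypical IkB protein, at -1.42. Senescence genes were up at 15 of 19 (1.02) and 8 of 19 (0.86), with CDKN1A, the p21 inhibitor of cyclin-dependent kinases, at 2.51 in DCIS (FDR 2.48e-09). Genes of epithelial-mesenchymal transition were up at 21 of 28 (1.12) and 11 of 26 (0.54), with TGFBI and MMP2 (2.67) up in DCIS and SNAI1, a repressor of E-cadherin, down (-2.19, FDR 1.88e-05). That list holds epithelial as well as mesenchymal genes. The 11 up in DCIS included the epithelial genes CDH1, which encodes E-cadherin (2.01), EPCAM (1.71), OVOL1 (2.97) and OVOL2 (1.10). They also included the mesenchymal genes SNAI2 (1.78), MMP14 (2.52), SPARC (1.33) and TNC (1.59). VIM, ZEB1, ZEB2, TWIST1 and TWIST2 were not called, nor were the epithelial genes ESRP1, ESRP2 and GRHL2. The regions given for CDH1, EPCAM, OVOL1, OVOL2, SNAI2, SPARC and TNC were enriched over input in neither group.

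The list of ANCO1 partners, which includes ANKRD11 itself, was up at 15 of 16 in 10A (0.85) and 5 of 15 in DCIS (-0.03), and at 14 of 15 and 4 of 14 without ANKRD11. EP300, the acetyltransferase, had 0.83 in 10A (FDR 0.000876). The PI3K-AKT and mTORC1 list had 22 of 28 (1.01) and 6 of 28 (0.17) up, with VEGFC, a lymphatic growth factor, at 2.56 in DCIS and PIK3R1 (-3.04, FDR 3.17e-05), the regulatory subunit of PI3K, SGK1 (-2.67) and FOXO3 (-1.66) down there. Of 48 olfactory receptor genes, which are silent in epithelium, 1 had a promoter region in 10A (up, OR1F1 at 0.96) and 3 in DCIS (none up), and neither line had a set of them large enough to describe.

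**Figure D5:**
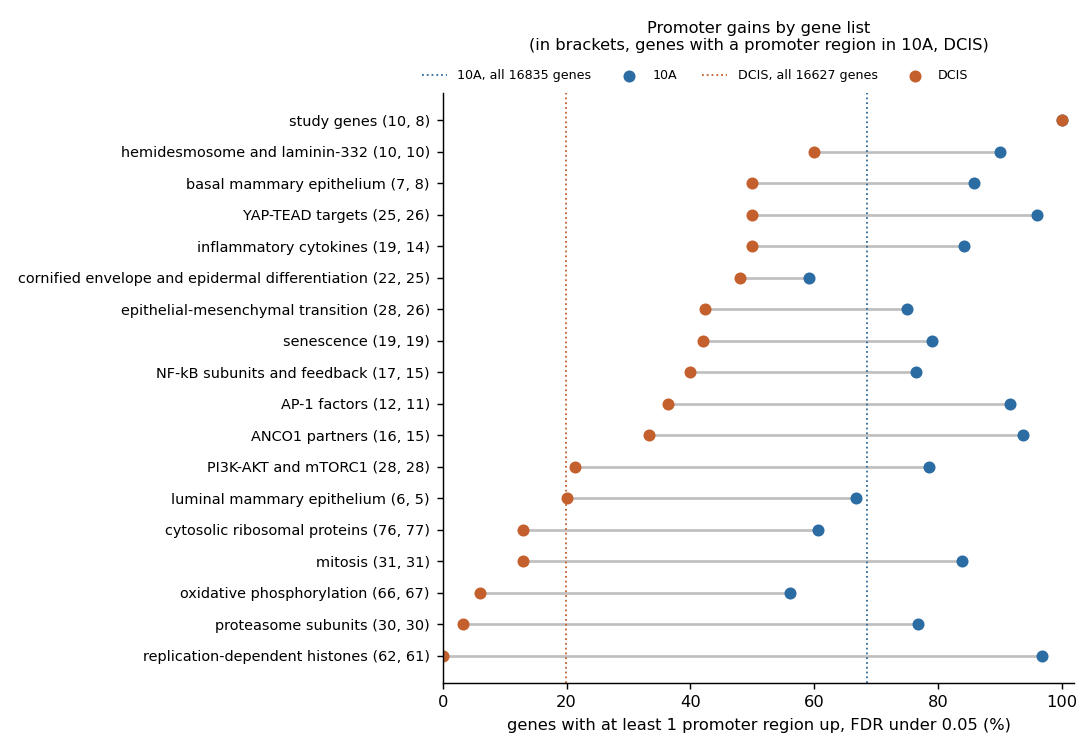
Share of the genes of each list with at least 1 promoter region up at an FDR under 0.05, in %, in 10A and DCIS, for the lists with at least 5 genes in both tables (number of genes in brackets). Dotted lines give all genes, 68.5% in 10A and 19.9% in DCIS. The DCIS points run from 0% at the histone genes to 60% at the hemidesmosome list among lists not drawn from the study, and the 10A points of the same lists between 56.1% and 96.8%.

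Markers of cell types were looked at in the same way. The basal mammary epithelium list had a promoter region at 7 of its 8 genes in 10A and at all 8 in DCIS, of which 6 and 4 were up. KRT5, a keratin of basal cells, had 1.10 in 10A (FDR 0.00111) but -0.61 in DCIS (FDR 0.456, not called). KRT14, another, had no promoter region in 10A. In DCIS it had 1.94 (FDR 0.00155), at a region enriched over input in neither group. KRT17, ITGA6 and ITGB4 were not called in DCIS either. The luminal list had 6 of 8 and 5 of 8, with 4 and 1 up. FOXA1, a luminal pioneer factor, was up in both (0.89 and 1.63). GATA3 had a region up in 10A (1.40, FDR 0.00306) and, at another stretch, 1 of 4 regions down in DCIS (-1.45, FDR 0.0402). That DCIS region had 2 windows and was enriched over input in neither group. The start region of GATA3 had 0.80 in 10A (FDR 0.0143) and -0.77 in DCIS (FDR 0.422, not called). Fibroblast markers had a promoter region at 3 of the 6 listed (10A) and 2 of the 6 (DCIS), immune markers at 2 of 6 (CD14 and CD68) in each, and endothelial markers at 2 of 4 in each. Of these, 2, 2 and 1 genes were up in 10A and 0, 0 and 1 in DCIS. PTPRC, CD3E and LYZ had none in either line. The part of other cells in the results was not tested.

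The sequence around starts was also compared by call. In DCIS the median CpG ratio was 0.69 at 610 genes with the start up, 0.72 at 143 with it down and 0.85 at 7280 not called, and CpG-poor starts made up 37.2%, 31.5% and 7.77%. In 10A it was 0.86 at 6291 genes up and 0.85 at 3140 not called. Over all 35116 RefSeq starts it was 0.58, with 45% CpG-poor, so starts in the tested regions had a higher median ratio than the reference.

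Short motifs were counted on both strands of the same stretch. The AP-1 site TGACTCA was found at 12% of DCIS starts that were up, 6.29% of those down and 3.13% of those not called, against 4.95% of all RefSeq starts. Within CpG-poor starts these shares were 22.9% of 227, 6.67% of 45 and 14.1% of 566, against 8.20% of all CpG-poor starts, and within CpG-rich starts 4.20%, 7.94% and 1.88%. In 10A AP-1 was found at 21.5% of CpG-poor starts up and 13.4% of those not called, and at 1.97% and 1.95% of CpG-rich ones.

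The ETS site CCGGAAG was found at 2.64% of CpG-poor and 21.0% of CpG-rich DCIS starts that were up, beside 7.24% and 26.3% of those not called. The GC box GGGCGG was found at 53.0% of DCIS starts up and 69.8% not called, but at 26.4% and 26.1% of CpG-poor and 77.3% and 78.5% of CpG-rich ones, so the classes carried that difference. TATAAA was found at 12.3% of CpG-poor starts up in DCIS and 12.7% not called. The TEAD site GGAATG was at 23.8% and 20.0% of these, CACGTG at 3.96% and 4.59%, TGACGTCA at 0.881% and 1.24%, and CCAAT at 33.5% and 35.5%. For GGAATG the order was the other way round in 10A CpG-poor starts, 19.9% up and 23.8% not called. It was so too in DCIS CpG-rich starts, 5.88% and 8.73%, and DCIS CpG-poor starts that were down had 24.4%. A match describes letters in this window and no match says nothing about the factor.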

How the data were processed

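H3K27Ac chromatin immunoprecipitates and inputs of 10A and DCIS cells with shANCO1 or shCTRL were sequenced in 24 libraries, 3 per group. The authors aligned reads to GRCh38 with BWA, marked duplicates with SAMtools, tested windows with csaw and annotated merged regions. Normalization, window filters and the prior count are not given in the sources used here. The deposited tables hold a log2 fold change of 1 representative window per region, and an FDR from p-values combined over its windows by the authors. All 6 deposited tables are such comparisons over whole groups, so depth per sample is unknown and 0 columns of per-sample values were left unused.

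Regions with a promoter entry were taken from the 2 direct tables. Calls used an FDR under 0.05 and the deposited direction. Overlap of at least 1 bp with a region enriched in the input tables counted as enriched. Distances were measured to GENCODE release 44 protein-coding starts, and sequences came from RefSeq on GRCh38.p14. As a check of the build, 0 regions passed the end of a chromosome, and of 47403 promoter entries with a RefSeq start of that symbol 75.6% had one within 5000 bp. Of the 10A genes (16835) a RefSeq symbol matched 16301 and a RefSeq promoter 12262; of the DCIS genes (16627) these were 16213 and 12179. No new model was fitted and no list was tested. Counting code was tested on simulated data. Python 3.11.15, numpy 2.4.6, pandas 2.3.3, scipy 1.17.1 and matplotlib 3.10.9 were used.

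Named were, per line and direction, the 8 promoter regions of lowest FDR with at least 3 windows and the 3 of largest change with at least 5 windows, ANKRD11 with the genes of the study's list, up to 4 genes per gene list by lowest FDR, and the 4 opposite genes with the lowest larger FDR. Other genes were named after their values were seen, and some items are not reported here. The members and lists were chosen with earlier results of these data known. Alternatives tried were other FDR thresholds, sizes, window numbers, promoter definitions, centring and units counted.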

Additional observations from a re-analysis of the deposited data

How the results depend on the processing

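Counts of promoter regions moved with the threshold and with the definition of a promoter. At an FDR under 0.01, up regions numbered 7060 in 10A and 2484 in DCIS and down regions 5 and 380, and at an FDR under 0.1 the 10A down count was 55. With at least 5 windows 16 of the 10A down regions remained. With a size of change of 1 or more on the log2 scale, 6201 regions were up in 10A. Regions within 1 kb of a protein-coding TSS gave 7359 and 1055 up and 7 and 290 down. With the median of all regions set to 0 and a size of 1 or more required, 224 were up in 10A and 2389 in DCIS. With 1 region per gene 2231 were up in DCIS, and 8 and 436 were down in 10A and DCIS.

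The promoter share of 10A up regions was 53.7% at an FDR under 0.1, 48.0% with a change of at least 1, 58.0% with at least 5 windows, 33.6% within 1 kb of a TSS, 51.9% by the first listed annotation and 39.0% after centring. For 10A down regions it was 16.7% at an FDR under 0.01 and 6.19% within 1 kb of a TSS. For DCIS up regions it was 33.8% and 36.7% at an FDR under 0.01 and 0.1, 40.2% with at least 5 windows, 9.98% within 1 kb of a TSS, 33.5% by the first annotation and 32.7% after centring. For DCIS down regions it was 31.2% at an FDR under 0.01, 36.8% with at least 5 windows, 13.3% within 1 kb of a TSS and 32.5% by the first annotation.

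The DCIS median of 0.33 was 0.13 within 1 kb of a TSS and, minus the median of regions with no promoter entry, turned to -0.41, while the 10A median came to 0.064 on that scale. Both follow from the subtraction itself. Enriched promoter regions numbered 807 (10A shCTRL), 6645 (10A shANCO1), 2400 (DCIS shCTRL) and 2538 (DCIS shANCO1) when at least 50% of the region had to be covered, and 3640 in 10A shCTRL at an FDR under 1e-10. Genes up in both lines numbered 1357 at an FDR under 0.01, and the 8 genes with a region down in both became 1 and 16 at an FDR under 0.01 and 0.1 and 4 by overlapping regions.

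Alternatives chosen after seeing the data concerned the share up by sequence class. In 10A it was 61.1% and 53.6% for CpG-rich and CpG-poor starts at 11 to 20 windows, 73.0% and 73.3% where both groups were enriched over input, and 28.2% and 33.5% for a change of at least 1 whatever the FDR. In DCIS it was 3.16% for CpG-rich starts at 11 to 20 windows, 22.6% for CpG-poor starts where both groups were enriched, and 11.9% and 36.3% for a change of at least 1. Counted by the widest region of each gene, also chosen after seeing the data, genes up in DCIS fell to 2 of 15 ANCO1 partners, 2 of 11 AP-1 factors, 5 of 77 ribosomal, 2 of 31 mitosis and 1 of 67 oxidative phosphorylation genes, beside 13.4% of all genes. Other than the centred values, the cause of these shifts was not tested. Of the planned values 46 stayed close to the reported one, 45 moved and 1 turned, and of those added 39 stayed and 15 moved. The share of promoter regions with 1 region per gene was not computed.

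No paired analysis was possible because the tables hold 1 value per region for a whole group, and for the same reason leaving out a replicate was not possible. Library depth is not given in the tables and its limits were not measured.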
